A study of Rattus norvegicus with 18 samples.

Results

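The transcripts described here encode the pyruvate dehydrogenase complex and enzymes of the citric acid cycle, measured in the livers of rats with steatohepatitis. They were chosen by gene symbol. Of the 9 genes named, *Pdha1*, *Pdhb*, *Dlat*, *Dld*, *Cs*, *Idh2*, *Idh3a* and *Sdhb* had a row in the count tables, and all 8 passed the filter on low counts. *Ogdh*, which encodes the dehydrogenase of the 2-oxoglutarate complex, is not analysed here. The tables held 32623 genes, of which 12904 were tested. In NASH livers 1 of the 8 transcripts, *Dlat*, was lower than in control livers, where 3.12% of all tested genes passed the test. In NASH-CH livers 1 of the 8, *Idh2*, was higher, where 17% of all tested genes passed, so that this count is no more than the share of all genes.

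RNA was sequenced from the livers of 18 male Wistar rats, with 1 library per rat and 6 rats in each of 3 groups. Control rats received standard chow and normal water for 12 weeks, with neither CCl4, phenobarbital nor HFCD, a diet rich in fat and cholesterol. NASH rats inhaled CCl4, a hepatotoxin, and drank phenobarbital, an inducer of hepatic drug metabolism, for 6 weeks, and then ate the HFCD for 4 weeks. NASH-CH rats, a model of steatohepatitis with established cirrhosis, received CCl4 and phenobarbital for 24 weeks and the HFCD during the last 16. No source used here gives the age of the rats. Each model group therefore differs from control rats by a toxin, a drug, a diet and the duration of the protocol at once, and these cannot be told apart. Both models were compared with the same 6 control rats, so the comparisons with control are not independent of each other. In whole liver, fewer cells of a type and less RNA per cell cannot be told apart.

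The pyruvate dehydrogenase complex sits in the mitochondrial matrix and turns pyruvate, the end product of glycolysis, into acetyl-CoA. Citrate synthase joins this acetyl-CoA to oxaloacetate, and the following steps of the cycle oxidise citrate and pass electrons to the respiratory chain. In the liver, citrate is also exported to the cytosol as a source of acetyl-CoA for fatty acid and cholesterol synthesis, and intermediates of the cycle are drawn off for gluconeogenesis.

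The promoters of *Dlat* and *Idh2* are shown because these were the transcripts that passed the test. Each is the run of 250 bases before the annotated start of the gene in RefSeq, build GRCr8, which is another build than that of the counts. The *Dlat* promoter lies at chr8:59900819-59901068 on the minus strand and the *Idh2* promoter at chr1:143467249-143467498 on the minus strand. Capitals mark GGGCGG (the GC box) or CCAAT on either strand.
Dlat promoter: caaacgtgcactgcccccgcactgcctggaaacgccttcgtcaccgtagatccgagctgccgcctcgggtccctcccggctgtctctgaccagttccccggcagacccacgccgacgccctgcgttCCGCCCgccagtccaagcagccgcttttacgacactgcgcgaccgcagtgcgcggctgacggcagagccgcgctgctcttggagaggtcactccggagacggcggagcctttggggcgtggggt
Idh2 promoter: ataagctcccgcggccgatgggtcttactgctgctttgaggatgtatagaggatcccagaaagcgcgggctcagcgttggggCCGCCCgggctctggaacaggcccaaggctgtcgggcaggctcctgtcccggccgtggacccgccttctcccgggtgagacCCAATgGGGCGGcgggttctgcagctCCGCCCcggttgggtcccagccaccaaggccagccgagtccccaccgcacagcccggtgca

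Of the 9 genes named, 8 had a promoter entry, all but *Idh3a*. The GC box letters were found in 5 of these 8 promoters and in 30.5% of all 33469 promoters of the same length, with 1 match in *Dlat* and 3 in *Idh2*. CCAAT was found in 4 of the 8 promoters and in 34% of all promoters, with 1 match in *Idh2*. CCGGAAG, an ETS factor motif, was found in 1 of the 8, that of *Sdhb*, and in 7.27% of all. Matches of the consensus motif of NRF1 and of TNAAGGTCA, a motif of oestrogen-related receptors, were in 0 of the 8 promoters, against 3.75% and 1.04% of all. Both strands were searched for each motif, no motif contains another, and the matches are letters in a window, not measured binding.

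Total counts per library ran from 19498534 to 27174015 in control rats, from 20827770 to 29491947 in NASH rats and from 44680344 to 60117822 in NASH-CH rats. Small non-coding, 7SK and SRP RNA took 16.1 to 22.3% of control, 14.7 to 17.3% of NASH and 11.1 to 13.1% of NASH-CH counts. Every NASH-CH library was deeper, and held a smaller share of these RNAs, than every other library. Depth and this share are therefore confounded with the NASH-CH group. Among hepatocyte markers, the summed level was 123966 to 184138 normalized counts (CPM) in control, 84615 to 144086 CPM in NASH and 81121 to 133609 CPM in NASH-CH livers, and none of the 8 was at 0. Summed markers of stellate cells were at 265 to 353, 210 to 292 and 263 to 403 CPM in the same order, those of macrophages at 263 to 490, 220 to 314 and 184 to 269 CPM, and those of endothelial cells at 184 to 260, 242 to 275 and 154 to 262 CPM. Summed cholangiocyte markers were at 8.43 to 10.5 CPM in control, 6.60 to 12.2 CPM in NASH and 6.53 to 51.5 CPM in NASH-CH livers, with a NASH-CH median of 14.5 CPM. Lymphocyte markers reached 2.84 CPM at most. In NASH livers *Apoa1*, *Lrat* and *Marco* were called lower. In NASH-CH livers 3 of 8 hepatocyte markers were called lower (*Alb*, *Ttr*, *Apoa1*), 5 of 8 macrophage markers lower (*Cd163*, *C1qb*, *Clec4f*, *Csf1r*, *Marco*), *Lrat* lower and *Col1a1*, *Des* and *Vwf* higher. By staining, the study reported more macrophages positive for CD68 and CD163 in NASH-CH than in control livers. Stained cells and transcript levels are unlike measures, so the lower macrophage transcripts do not show fewer macrophages. In NASH-CH against NASH *Col1a1*, *Col3a1*, *Des* and *Spp1* were called higher. *Col1a2* and *Pecam1* are not analysed here. The part of these cell types in the results below was not tested.

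Control rat 6 and NASH-CH rat 5 lay at the ends of their groups. On the first principal component of all tested genes the control rats ran from -49.6 to -11.7. Control rat 6 was at -11.7, control rat 2 at -18.2 and the next, control rat 3, at -35.4. Control rat 6 was therefore the end of a wide spread that control rat 2 shared. NASH-CH rat 5 was at 58.5 where the other NASH-CH rats were at 22.6 to 42.5. Control rat 6 and NASH-CH rat 5 each had the lowest sum of hepatocyte markers in their group. Control rat 6 was the lowest control rat for 7 of the 8 transcripts, all but *Pdha1*. NASH-CH rat 5 was the lowest of its group for 5 of the 8, *Pdha1*, *Pdhb*, *Dlat*, *Cs* and *Sdhb*, and the highest for *Idh3a*. The calls are also given without these 2 rats, a choice made after the data had been seen. It drew in part on the values of the 8 transcripts themselves. Leaving out the lowest control rat raises the control mean, which enlarges falls against control by construction.

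Levels below are CPM after TMM normalization, each as the lowest, the median and the highest of 6 rats, and levels of different genes are not compared because no gene lengths were used. Changes are log2 fold changes with their standard error (SE) from the limma-voom fit of all 18 rats, and p-values are adjusted over all 12904 genes. A gene is called changed when its adjusted p is below 0.05.

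**Figure D1:**
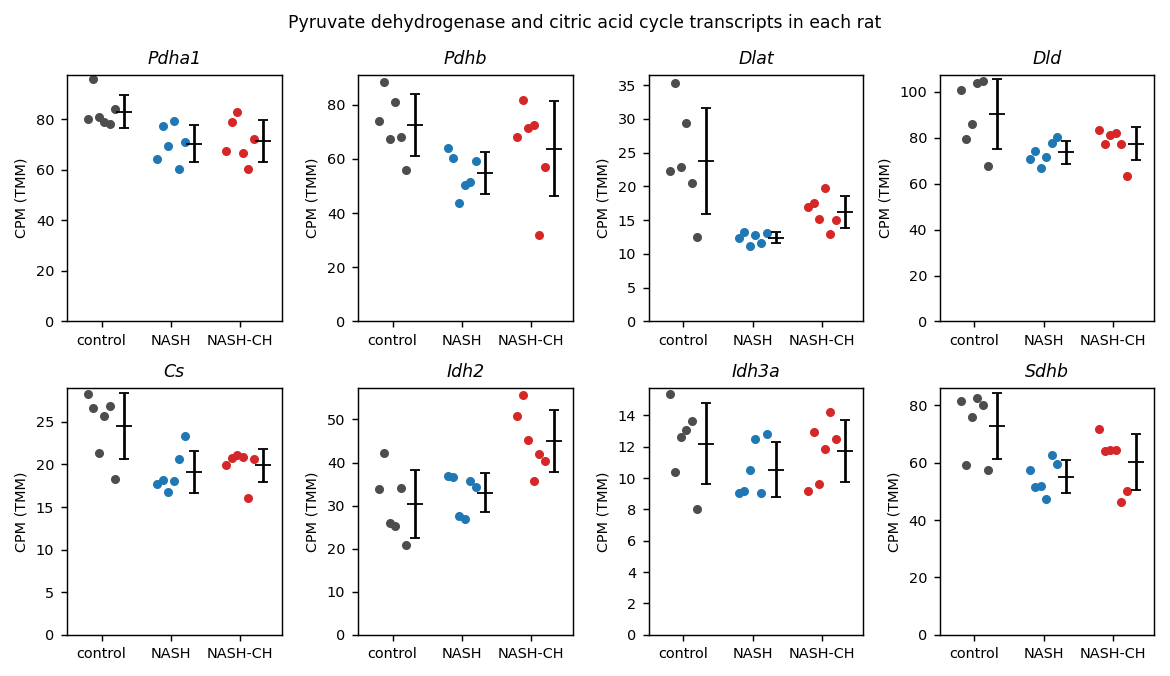
Level of each of the 8 transcripts in every rat, in CPM after TMM normalization (vertical axis from 0), by group (horizontal axis). Each point is 1 rat, and the bar beside each group is the mean with the SD over 6 rats. The 6 NASH rats sit between 11.2 and 13.2 CPM for *Dlat*, and 5 of the 6 NASH-CH rats lie above every NASH rat for *Idh2*.

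Among the components of the pyruvate dehydrogenase complex, *Dlat* fell in NASH livers. *Dlat* encodes dihydrolipoamide acetyltransferase, the core of the complex, whose lipoyl arm hands the acetyl group to coenzyme A. It was at 12.6, 22.5 and 35.4 CPM in control rats, at 11.2, 12.6 and 13.2 CPM in NASH rats and at 12.9, 16.1 and 19.8 CPM in NASH-CH rats. The control rats were widely spread and the NASH rats tightly packed at the bottom of the control range, with 3 of the 6 NASH rats below every control rat. *Dlat* fell by 0.87 on the log2 scale in NASH livers (SE 0.183, n = 6 against 6, adjusted p = 0.0171 by limma-voom), a level 1.83-fold lower, with a 95% interval from -1.26 to -0.49. The call was kept when any 1 of the 18 rats was left out, with a log2 fold change of -1.05 to -0.74 and adjusted p between 0.000712 and 0.0466. In NASH-CH rats the log2 fold change was -0.49 (SE 0.177, adjusted p = 0.0640 by limma-voom), which did not pass the test with all rats and did without control rat 6 and NASH-CH rat 5, at -0.61 with an adjusted p of 0.00508. Without control rat 6 alone it was -0.67, with an adjusted p of 0.00260. Control rat 6 held the lowest control value of *Dlat*, so leaving it out enlarges the fall by construction.

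*Pdha1* and *Pdhb* encode the alpha and beta subunits of pyruvate dehydrogenase itself, which removes carbon dioxide from pyruvate, and the alpha subunit carries the serines that switch the enzyme off when phosphorylated. *Pdha1* was at 78.2, 80.5 and 95.9 CPM in control, 60.4, 70.3 and 79.3 CPM in NASH and 60.2, 69.8 and 82.7 CPM in NASH-CH rats. Most rats of both models lay below the control range, with 5 of 6 NASH and 4 of 6 NASH-CH rats under every control rat, yet the log2 fold changes were small and did not pass the test, at -0.24 (SE 0.0897, adjusted p = 0.132 by limma-voom) and -0.22 (SE 0.0939, adjusted p = 0.116). *Pdhb* was at 56.0, 71.1 and 88.3 CPM in control, 43.6, 55.4 and 64.2 CPM in NASH and 32.0, 69.9 and 81.6 CPM in NASH-CH rats. The NASH-CH median was close to that of control rats while NASH-CH rat 5 held the lowest value of all 18. *Pdhb* had log2 fold changes of -0.40 in NASH (SE 0.168, adjusted p = 0.179 by limma-voom) and -0.21 in NASH-CH livers (SE 0.177, adjusted p = 0.431).

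*Dld* encodes dihydrolipoamide dehydrogenase, which reoxidises the lipoyl arm and is shared with the 2-oxoglutarate and branched-chain 2-oxoacid complexes and the glycine cleavage system. It was at 67.6, 93.4 and 104.5 CPM in control, 66.6, 73.0 and 80.4 CPM in NASH and 63.5, 79.1 and 83.2 CPM in NASH-CH rats. Control rats reached higher values, but the lowest control rat was as low as the model rats. The log2 fold changes were -0.29 in NASH (SE 0.104, adjusted p = 0.122 by limma-voom) and -0.22 in NASH-CH livers (SE 0.109, adjusted p = 0.183), neither past the test.

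In the cycle itself, *Idh2* moved the other way. It encodes the mitochondrial isocitrate dehydrogenase that makes NADPH, which feeds the glutathione and thioredoxin systems of the matrix. *Idh2* was at 20.8, 29.9 and 42.3 CPM in control, 26.9, 35.0 and 36.9 CPM in NASH and 35.7, 43.7 and 55.6 CPM in NASH-CH rats. NASH-CH rats were the highest group, with 3 of 6 above every control rat and 5 of 6 above every NASH rat, and the NASH rats lay inside the control range. *Idh2* rose by 0.59 on the log2 scale in NASH-CH livers (SE 0.160, adjusted p = 0.0172 by limma-voom), a level 1.51-fold higher, with a 95% interval from 0.26 to 0.93. The call held with any 1 rat left out, at 0.49 to 0.70 with adjusted p between 0.00444 and 0.0473, and without control rat 6 and NASH-CH rat 5 together, at 0.50 with an adjusted p of 0.032. In NASH livers its log2 fold change was 0.15 (SE 0.153, adjusted p = 0.623 by limma-voom).

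*Cs* encodes citrate synthase, which opens the cycle. It was at 18.3, 26.2 and 28.2 CPM in control, 16.7, 18.1 and 23.4 CPM in NASH and 16.1, 20.7 and 21.1 CPM in NASH-CH rats. The medians of both models lay below that of control rats and the groups overlapped. The log2 fold changes of *Cs* were -0.35 in NASH (SE 0.113, adjusted p = 0.0903 by limma-voom) and -0.29 in NASH-CH livers (SE 0.113, adjusted p = 0.0875).

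*Idh3a* encodes the catalytic subunit of the NAD-dependent isocitrate dehydrogenase, the enzyme of the cycle proper, which acts on the same substrate as the product of *Idh2*. It was at 8.03, 12.8 and 15.4 CPM in control, 9.04, 9.85 and 12.8 CPM in NASH and 9.15, 12.2 and 14.2 CPM in NASH-CH rats. All model rats lay within the control range. *Idh3a* had log2 fold changes of -0.18 in NASH (SE 0.159, adjusted p = 0.557 by limma-voom) and -0.03 in NASH-CH livers (SE 0.152, adjusted p = 0.917).

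*Sdhb* encodes the iron-sulphur subunit of succinate dehydrogenase, which belongs both to the cycle and to the respiratory chain as complex II. It was at 57.4, 78.1 and 82.6 CPM in control, 47.3, 54.8 and 62.7 CPM in NASH and 46.3, 64.2 and 71.7 CPM in NASH-CH rats. The NASH rats were the lowest group, with 3 of 6 below every control rat, and control rats were split between low and high values. The log2 fold changes of *Sdhb* were -0.40 in NASH (SE 0.119, adjusted p = 0.0693 by limma-voom) and -0.28 in NASH-CH livers (SE 0.125, adjusted p = 0.137).

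**Figure D2:**
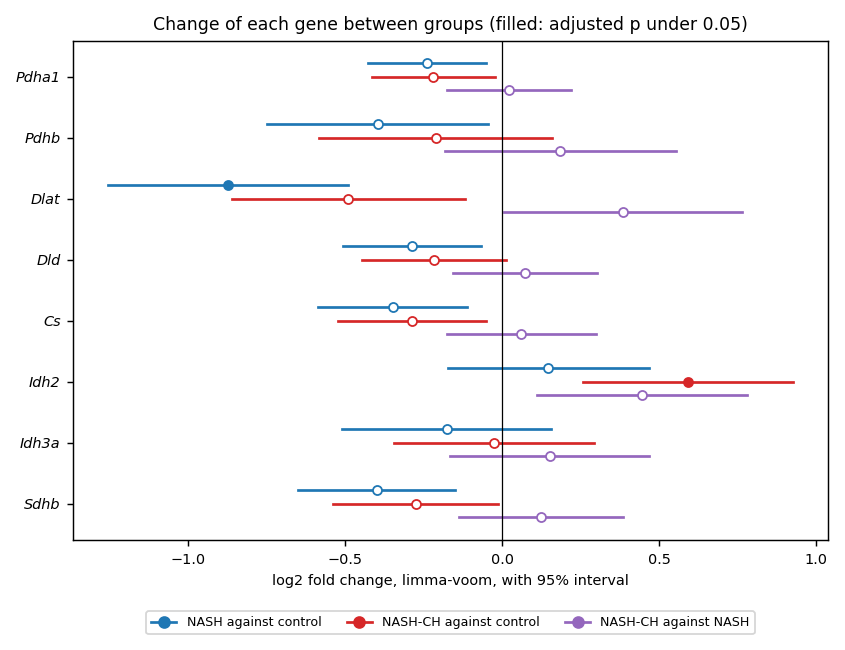
Log2 fold change (horizontal axis) of each of the 8 transcripts (vertical axis) for NASH against control, NASH-CH against control and NASH-CH against NASH. Points are limma-voom estimates, lines are 95% intervals and filled points have an adjusted p below 0.05. Of the 24 estimates, the filled ones are *Dlat* in NASH at -0.87 and *Idh2* in NASH-CH livers at 0.59.

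Across the 8 transcripts, 1 was called in NASH against control, lower, where 3.12% of all tested genes were called, 1.54% lower and 1.58% higher. In NASH-CH against control 1 was called, higher, where 17% were called, 8.38% higher and 8.6% lower. The share of 1 in 8 in NASH-CH livers was therefore no higher than that of all genes. Before adjustment, p was below 0.05 for 6 of 8 in NASH and 5 of 8 in NASH-CH livers, against 21.5% and 31.7% of all genes. The groups overlapped for all 8 in every comparison, where 3.16%, 7.11% and 3.46% of all genes separated NASH from control, NASH-CH from control and NASH-CH from NASH.

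By direction alone, 7 of the 8 transcripts, all but *Idh2*, had a log2 fold change below 0 against control in each model, where 49% and 48.5% of all genes did. The median of the 8 was -0.32 in NASH and -0.22 in NASH-CH livers, and that of all genes was 0.0072 and 0.013. The group means stood in the order control, NASH-CH, NASH for the same 7 transcripts and in the order NASH-CH, NASH, control for *Idh2*. The called comparisons of *Dlat* and *Idh2* join the highest and the lowest group of these orders, and no neighbouring groups in them passed the test. With control rat 6 and NASH-CH rat 5 left out, 5 of the 8 were called in NASH, *Pdhb*, *Dlat*, *Dld*, *Cs* and *Sdhb*, and 4 in NASH-CH livers, *Dlat*, *Dld*, *Cs* and *Idh2*. In that fit 10.9% of all genes were called in NASH and 19.5% in NASH-CH livers. Control rat 6 was left out in part for its low values of these transcripts, so the added calls are no separate support for a fall.

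The scaling of the libraries set the direction of the smaller changes. With scaling by library size only, the median of all genes moved to 0.23 in NASH and 0.27 in NASH-CH livers, and 6 and 3 of the 8 transcripts were then below 0. Relative to the median of all genes, 7 of the 8 were lower and *Idh2* higher in each model, with *Dlat* at -0.88 in NASH and *Idh2* at 0.58 in NASH-CH livers. Another scaling moves all genes of a library alike, so these relative values barely change with it by construction.

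**Figure D3:**
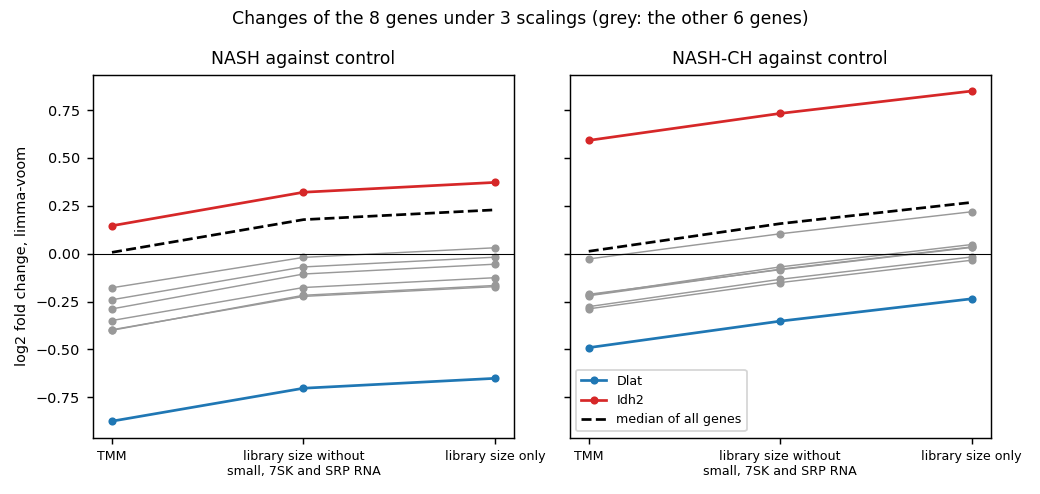
Log2 fold change (vertical axis) of the 8 transcripts against control under 3 scalings of the libraries (horizontal axis), in NASH livers on the left and NASH-CH livers on the right. *Dlat* is blue, *Idh2* red, the other 6 transcripts grey and the median of all tested genes dashed; all lines move up together, and the median of all genes reaches 0.23 and 0.27 under library size only.

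Between the models, 0 of the 8 transcripts was called in NASH-CH against NASH by limma-voom, where 4.2% of all genes were. Before adjustment 2 of 8 had p below 0.05, against 17.5% of all genes, and edgeR and DESeq2 likewise called 0. All 8 estimates were above 0, with a median of 0.14, where 48.7% of all genes were below 0. *Idh2* was 0.45 higher in NASH-CH livers on the log2 scale (SE 0.159, adjusted p = 0.135 by limma-voom, 95% interval 0.11 to 0.78) and *Dlat* 0.38 higher (SE 0.181, adjusted p = 0.280, 95% interval 0.00395 to 0.76). The other 6 lay between 0.02 for *Pdha1* and 0.19 for *Pdhb*, with adjusted p between 0.638 and 0.944.

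In the difference between 2 transcripts of a library its scaling cancels apart from the prior count, and 2 pairs were compared, chosen with earlier results of these data known. *Idh2* and *Idh3a* encode isocitrate dehydrogenases that make NADPH and NADH. The difference *Idh2* minus *Idh3a* in log2 CPM stood at 0.95, 1.23 and 2.02 for control rats, at 1.10, 1.69 and 2.02 for NASH rats and at 1.56, 1.89 and 2.47 for NASH-CH rats. All 6 NASH-CH rats were above the control mean, although control rat 2 was as high as the middle of the NASH-CH group. The mean difference was 1.30 ± 0.383 in control and 1.94 ± 0.380 in NASH-CH rats (SD, n = 6), 0.63 higher in the latter (two-sided exact permutation test, p = 0.0238, adjusted p = 0.0476 over 6 comparisons). For NASH against control it was 0.34 higher (exact p = 0.130, adjusted p = 0.195) and for NASH-CH against NASH 0.29 higher (exact p = 0.229, adjusted p = 0.258).

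*Dlat* and *Pdha1* encode the core and a catalytic subunit of the same complex. *Dlat* minus *Pdha1* stood at -2.74, -1.83 and -1.42 for control rats, at -2.63, -2.49 and -2.37 for NASH rats and at -2.44, -2.19 and -1.74 for NASH-CH rats. Control rat 6 lay below every NASH rat, while the other 5 control rats lay above all of them. The mean was -1.87 ± 0.480 for control rats, -2.50 ± 0.118 for NASH rats and -2.13 ± 0.240 for NASH-CH rats (SD, n = 6). It fell by 0.63 in NASH against control (two-sided exact permutation test, p = 0.0152, adjusted p = 0.0455) and was 0.36 higher in NASH-CH than in NASH rats (exact p = 0.00866, adjusted p = 0.0455), with 5 of 6 NASH-CH rats above every NASH rat. For NASH-CH against control the difference was -0.27 (exact p = 0.258, adjusted p = 0.258). Each pair holds *Idh2* or *Dlat*, which were called above in the same rats, so the ratios are no separate support for the changes of these transcripts. The calls on these ratios were near the threshold when 1 rat was left out at a time. For *Idh2* minus *Idh3a* in NASH-CH against control the call was lost in 11 of 18 fits (exact adjusted p up to 0.0909). For *Dlat* minus *Pdha1* it was lost in 9 of 18 in NASH against control (up to 0.0844) and in 8 of 18 in NASH-CH against NASH (up to 0.0649). Some of these losses came from leaving out a rat of the group not compared, which moved only the adjustment over 6 comparisons. These were NASH rats 2, 3, 4 and 6 for *Idh2* minus *Idh3a*. For *Dlat* minus *Pdha1* in NASH-CH against NASH they were control rats 1, 3, 4 and 5. Without control rat 6 and NASH-CH rat 5, *Idh2* minus *Idh3a* was 0.72 higher in NASH-CH than in control rats (exact adjusted p = 0.0635), no longer past the threshold, and *Dlat* minus *Pdha1* was -0.80 in NASH against control (exact adjusted p = 0.0130) and 0.38 in NASH-CH against NASH (exact adjusted p = 0.0325). Without control rat 6 alone, *Dlat* minus *Pdha1* in NASH-CH against control was -0.44 (exact adjusted p = 0.0433). Control rat 6 held the lowest control value of *Dlat* minus *Pdha1*, so leaving it out enlarges falls against control by construction.

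**Figure D4:**
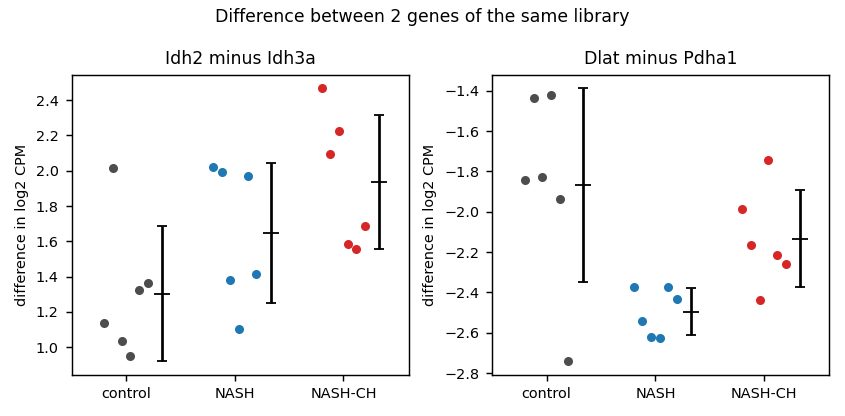
Difference in log2 CPM (vertical axis) between *Idh2* and *Idh3a* on the left and between *Dlat* and *Pdha1* on the right, in each rat by group (horizontal axis). Points are rats and bars are the mean with the SD over 6 rats; for *Dlat* minus *Pdha1* the NASH rats lie between -2.63 and -2.37 and 1 control rat lies lower, at -2.74.

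Genes around the complex and the cycle were described in 10 lists of 78 genes, 77 of them tested, which were chosen with earlier results known. Of the 77, 6 (7.79%) were called in NASH, 1 higher and 5 lower, and 16 (20.8%) in NASH-CH livers, 1 higher and 15 lower, against 3.12% and 17% of all genes. In NASH-CH against NASH 0 of the 77 was called by limma-voom and 0 by edgeR, DESeq2 called 2, *Glud1* and *Dlst*, and 5 had an unadjusted p below 0.05. Against control, edgeR called 7 of the 77 in NASH and 16 in NASH-CH livers, DESeq2 called 11 and 22, and 18 and 27 had an unadjusted p below 0.05. In NASH-CH livers DESeq2 added *Mpc2*, *Sdhc*, *Sdhd*, *Acly*, *Lipt2* and *Phb2*. The median log2 fold change of the 77 was -0.13 in NASH and -0.16 in NASH-CH livers.

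Pyruvate entry and anaplerosis held the most calls, with 2 of 10 lower in NASH and 5 of 10 lower in NASH-CH livers. *Mpc1*, a subunit of the carrier that brings pyruvate into mitochondria, was at 90.9, 103 and 123 CPM in control, 69.7, 81.0 and 96.7 CPM in NASH and 62.0, 69.3 and 86.0 CPM in NASH-CH rats. It fell by 0.39 in NASH (SE 0.102, adjusted p = 0.0440 by limma-voom) and by 0.57 in NASH-CH livers (SE 0.106, adjusted p = 0.00136), where no NASH-CH rat overlapped the control rats. *Pck2*, the mitochondrial phosphoenolpyruvate carboxykinase, was low throughout, at 4.85, 5.25 and 6.17 CPM in control, 2.31, 3.13 and 4.41 CPM in NASH and 3.30, 3.96 and 4.92 CPM in NASH-CH rats. It fell by 0.71 in NASH (SE 0.142, adjusted p = 0.0133 by limma-voom), with every NASH rat below every control rat, and by 0.45 in NASH-CH livers (SE 0.125, adjusted p = 0.0197). *Glud1*, glutamate dehydrogenase, fell by 0.57 in NASH-CH livers (SE 0.142, adjusted p = 0.0109), again with no overlap, at 291, 520 and 594 CPM against 609, 734 and 786 CPM. *Ldha*, lactate dehydrogenase A, fell by 0.67 (SE 0.192, adjusted p = 0.0234) and *Pc*, pyruvate carboxylase, by 0.65 (SE 0.218, adjusted p = 0.0470), and NASH-CH rat 5 was the lowest of all 18 rats for both.

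Of the 13 other subunits and enzymes of the complex and the cycle, 0 was called in NASH by limma-voom or edgeR, 1 by DESeq2, *Pdhx*, and 3 had an unadjusted p below 0.05. In NASH-CH livers DESeq2 called 4, with *Sdhc* and *Sdhd* added, and 5 had an unadjusted p below 0.05, while limma-voom and edgeR called 2, both lower. *Idh3g*, a regulatory subunit of the same NAD-dependent enzyme as *Idh3a*, fell by 0.42 (SE 0.119, adjusted p = 0.0228 by limma-voom), with 5 of 6 NASH-CH rats below the control range of 19.7 to 27.8 CPM. *Pdhx*, which tethers dihydrolipoamide dehydrogenase to the core made by *Dlat*, fell by 0.58 (SE 0.175, adjusted p = 0.0305), from 14.6, 19.6 and 31.5 CPM in control to 10.2, 14.2 and 15.2 CPM in NASH-CH rats. Among the 7 regulators of the complex 1 was called in NASH-CH livers, *Pdk1*, a kinase that inactivates pyruvate dehydrogenase, which fell by 0.64 (SE 0.205, adjusted p = 0.0376). In NASH livers 0 of the 7 was called by limma-voom or edgeR and 1 by DESeq2, again *Pdk1*, and 2 had an unadjusted p below 0.05. The call of *Pdk1* in NASH-CH livers was lost in 6 of 18 fits with 1 rat left out. The falls of *Idh3g*, *Pdhx* and *Pdk1* were not particular to NASH-CH livers. Their medians were 24.1, 19.6 and 31.5 CPM in control, 18.1, 13.8 and 19.9 CPM in NASH and 19.2, 14.2 and 21.7 CPM in NASH-CH rats.

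Of the 9 cytosolic partners and citrate exporters, 2 were called lower in each model by limma-voom. *Me1*, the cytosolic malic enzyme that makes NADPH for lipid synthesis, was at 10.1, 28.3 and 42.4 CPM in control, 5.10, 9.10 and 13.5 CPM in NASH and 8.67, 11.5 and 19.4 CPM in NASH-CH rats. It fell by 1.60 in NASH (SE 0.307, adjusted p = 0.0110 by limma-voom) and by 1.10 in NASH-CH livers (SE 0.287, adjusted p = 0.0140). *Acly*, which splits exported citrate into acetyl-CoA and oxaloacetate, fell by 2.11 in NASH livers (SE 0.521, adjusted p = 0.0342), from 148, 658 and 933 CPM to 40.6, 153 and 288 CPM, with 3 of 6 NASH rats below every control rat. *Mdh1*, cytosolic malate dehydrogenase, fell by 0.67 in NASH-CH livers (SE 0.211, adjusted p = 0.0355). These 2 falls were not particular to 1 model. The median of *Mdh1* was 227 CPM in control, 126 CPM in NASH and 135 CPM in NASH-CH rats, and that of *Acly* was 222 CPM in NASH-CH rats. DESeq2 called 4 of the 9 in NASH livers, adding *Mdh1* and *Slc25a1*, and 3 in NASH-CH livers, adding *Acly*, while edgeR called 3 and 2.

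Lipoate attachment supplies the lipoyl arm of *Dlat*'s product. In NASH livers 0 of its 7 genes were called by limma-voom, edgeR or DESeq2, and 2 had an unadjusted p below 0.05. In NASH-CH livers DESeq2 called 2, *Lipt2* and *Glrx5*, and 3 had an unadjusted p below 0.05, while limma-voom and edgeR called 1. This was *Glrx5*, a glutaredoxin of iron-sulphur cluster assembly on which lipoate synthesis depends, which fell by 0.63 (SE 0.136, adjusted p = 0.00457 by limma-voom). Among 7 regulators of mitochondrial gene expression, *Ppara*, a nuclear receptor that drives fatty acid oxidation genes, rose by 0.91 in NASH (SE 0.219, adjusted p = 0.0309) and 0.88 in NASH-CH livers (SE 0.226, adjusted p = 0.0132), with 5 of 6 rats of each model above every control rat. *Esrra*, oestrogen-related receptor alpha, fell by 0.47 in NASH-CH livers (SE 0.114, adjusted p = 0.0102), with levels of 7.30 to 10.9 CPM against 11.8 to 15.3 CPM in control rats and no overlap. *Tfam*, which packages and transcribes mitochondrial DNA, fell by 0.27 in NASH-CH livers (SE 0.0823, adjusted p = 0.0305), also with no overlap, but with scaling by library size only it was at -0.0148 with an adjusted p of 0.919. No other regulator was called.

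Of 9 tested genes of mitochondrial content, 1 was lower in NASH and 2 in NASH-CH livers. *Phb*, a prohibitin of the inner membrane, fell by 0.32 in NASH (SE 0.0835, adjusted p = 0.0414 by limma-voom), where every NASH rat was below every control rat, and by 0.29 in NASH-CH livers (SE 0.0873, adjusted p = 0.0316). *Tomm70*, an import receptor of the outer membrane, fell by 0.32 in NASH-CH livers (SE 0.100, adjusted p = 0.0346). With scaling by library size only, neither was called: *Phb* was at -0.0934 in NASH and -0.0243 in NASH-CH livers and *Tomm70* at -0.0675 in NASH-CH livers. In the lists of sister 2-oxoacid dehydrogenases (5 genes), succinate dehydrogenase assembly (4) and mitochondrial NADPH and deacylation (6), 0 genes were called in any comparison by limma-voom or edgeR, and DESeq2 called 1, *Bckdk* in NASH livers. At an unadjusted p below 0.05 there were 1, 0 and 2 genes of these lists in NASH and 2, 1 and 0 in NASH-CH livers, in the same order. Of the 22 calls on genes of these lists, 21 were kept without control rat 6 and NASH-CH rat 5, all but *Tomm70*. Control rat 6 was the lowest control rat for many of these genes, among them *Pdk1*, *Pc*, *Ldha*, *Glud1*, *Mdh1*, *Me1* and *Acly*. Leaving it out enlarges their falls by construction, so the kept calls are no separate support. With NASH-CH rat 5 alone left out, the calls of *Pdk1*, *Pc*, *Pdhx*, *Mdh1* and *Tomm70* in NASH-CH livers were lost. With scaling by library size only 13 were lost, those of *Phb* in both models, *Mpc1* in NASH and *Tfam*, *Tomm70*, *Pck2*, *Pdk1*, *Ldha*, *Pc*, *Idh3g*, *Pdhx*, *Mdh1* and *Esrra* in NASH-CH livers. When the 2 groups compared were fitted alone 8 were lost, and those of *Mpc1* in NASH (12 of 18 fits), *Pc* (11), *Phb* in NASH (10), *Ppara* in NASH (9), *Acly* and *Mdh1* (8 each) were the ones most often lost when 1 rat was left out.

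**Figure D5:**
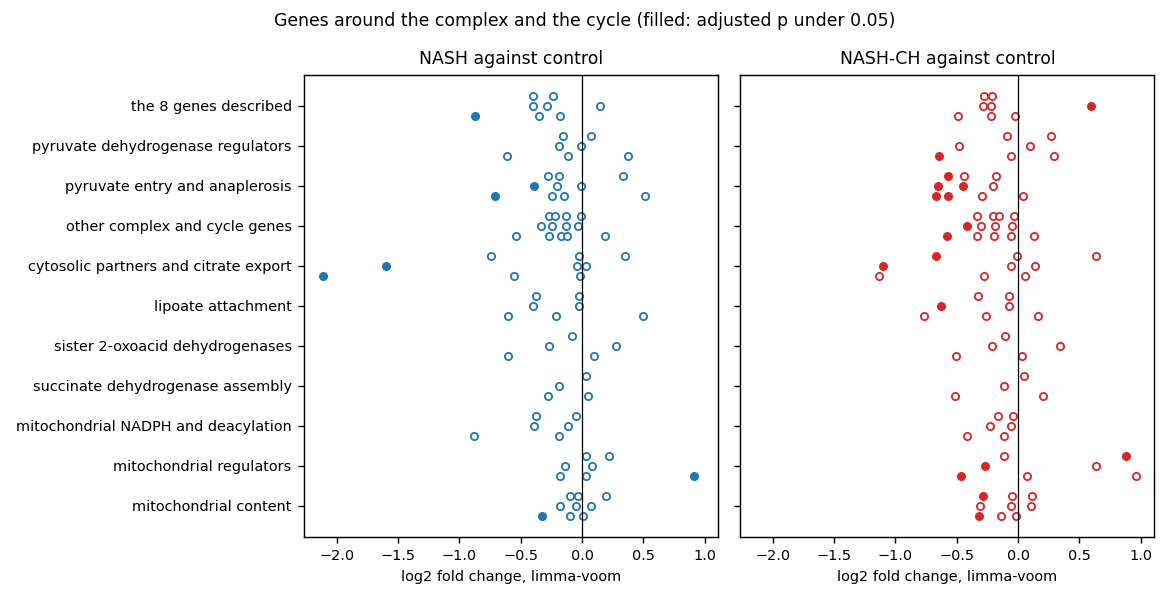
Log2 fold change (horizontal axis) of each tested gene of the 8 transcripts and of 10 lists around them (vertical axis), for NASH against control on the left and NASH-CH against control on the right. Each point is a gene and filled points have an adjusted p below 0.05; *Acly* at -2.11 and *Me1* at -1.60 in NASH livers are farthest to the left, and the filled point at 0.91 in NASH and that at 0.88 in NASH-CH livers are *Ppara*.

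Over the 18 rats, whose libraries share the differences in depth and group given above, the 28 pairs of the 8 transcripts had Pearson's r of log2 CPM between -0.19 and 0.86, with a median of 0.45, and r was above 0 in 25 of 28. With group means removed r ran from -0.27 to 0.77, with a median of 0.35. The tested gene whose level was most like that of each, among 5213 genes searched over the same 18 rats, was *Eif4e2* for *Dlat* (r = 0.85, 0.67 with group means removed), *Sdc1* for *Idh2* (0.84, 0.67), *Bckdk* for *Pdhb* (0.90, 0.90), *Akr1a1* for *Dld* (0.95, 0.92) and *Rbfa* for *Sdhb* (0.95, 0.96). It was *Clpb* for *Cs* (0.90, 0.86), *Ciapin1* for *Pdha1* (0.80, 0.73) and *Tubb4b* for *Idh3a* (0.79, 0.78).

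Counts of *Pdha1* were not whole numbers (tolerance 1e-06) in 18 of 18 libraries and those of *Dlat* in 14 of 18, so that some of their reads were divided among genes and their values are uncertain to that extent. *Pdha1l1*, a close copy of *Pdha1*, held 6.51 to 9.44% of the summed counts of the pair. With both summed, the log2 fold change was -0.24 in NASH, -0.22 in NASH-CH and 0.024 between the models, and no call changed.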

How the data were processed

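Livers of 18 rats (6 per group) gave 1 sequencing library each. The labels name the RNAqueous-Micro kit and TruSeq Stranded mRNA preparation, and the methods the miRNeasy kit. The authors checked reads with FastQC, trimmed them with Trim Galore, aligned them to Rnor_6.0 with STAR in 2 passes and ran RSEM on Ensembl release 95; versions are not given in the sources used here. The authors deposited expected counts per gene, not normalized, which divide reads shared by several genes. Strandedness of the counting is not given in the sources used here.

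Expected counts were rounded, normalized by TMM (edgeR 4.0.16) and tested with limma-voom 3.58.1 in R 4.3.3, in 1 fit of 18 rats with group means as coefficients. The low-count filter was filterByExpr, and p-values were adjusted by the Benjamini-Hochberg method at 0.05. Log2 CPM used a prior count of 2. Differences between 2 genes were tested by exact permutation of rats (two-sided, smallest possible p 0.00216), adjusted over 6 comparisons. The tests were tried on simulated data. Groups came from the labels. Nothing says which rats shared a cage or day. Every 2 rats of a group differed by more than counting error (smallest chi-square per degree of freedom 43.4, 29.9 and 79.6). Motifs were searched with Python 3.11.15 and figures drawn with matplotlib 3.10.9.

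The genes, lists and pairs were chosen with earlier results of these data known. Genes named were the 9 chosen, up to 5 genes of each list with an adjusted p below 0.05, by smallest p, and for each of the 8 the tested gene of highest Pearson's r with at least 10 CPM on average. Alternatives were edgeR, DESeq2 1.42.0, other scalings and filters, the groups compared fitted alone, sample quality weights, thinned NASH-CH counts, a replicate block and each rat left out. Leaving out control rat 6 with NASH-CH rat 5 and summing *Pdha1* with *Pdha1l1* were added with the data in view.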

Additional observations from a re-analysis of the deposited data

Results flagged for a closer look

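In 81 groups of 6 rats, the highest or lowest rat was set against the nearest of the others, and 3 stood far from the rest, where chance gives about 1 in 20. *Pdha1* in control rats had its highest value in control rat 2, at 95.9 CPM where the next rat was at 84.2 CPM. *Dld* in NASH-CH rats had its lowest value in NASH-CH rat 6, at 63.5 CPM, with the next at 77.2 CPM. *Cs* in NASH-CH rats had its lowest value in NASH-CH rat 5, at 16.1 CPM, with the next at 19.95 CPM. None of these rats decided a call on these 3 genes when it was left out.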

How the results depend on the processing

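The fall of *Dlat* in NASH and the rise of *Idh2* in NASH-CH livers kept their direction and their call under all 13 alternatives, with adjusted p between 4.78e-05 and 0.0423 and between 0.000901 and 0.0397. Of the 8 transcripts, 1 was called in NASH against control, but 3 by DESeq2, 6 with sample quality weights and 5 without control rat 6 and NASH-CH rat 5, where the share of all genes called went from 3.12% to 9.52%, 11.7% and 10.9%. In NASH-CH against control 1 was called, but 2 by edgeR, 3 by DESeq2, 2 without a filter, 2 with quality weights and 4 without those rats, where the share of all genes went from 17% to 19%, 22%, 26.3%, 18.7% and 19.5%. Leaving out 1 rat gave 1 to 4 in NASH, 1 to 4 in NASH-CH and 0 in NASH-CH against NASH, the highest without control rat 6.

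With library size only, *Idh3a* turned to 0.0311 in NASH, and *Pdha1* (0.0355), *Pdhb* (0.0330), *Dld* (0.0480) and *Idh3a* (0.219) turned in NASH-CH livers. Without small non-coding, 7SK and SRP RNA, library size gave 0.104 for *Idh3a* in NASH-CH against control and -0.0119 for *Pdha1* in NASH-CH against NASH. With 1 rat left out, *Idh3a* in NASH-CH against control ran from -0.15 to 0.0393 and *Pdha1* in NASH-CH against NASH from -0.0223 to 0.0557. *Idh2* minus *Idh3a* in NASH-CH against control then ran from 0.53 to 0.77, and *Dlat* minus *Pdha1* from -0.80 to -0.54 in NASH against control, -0.44 to -0.18 in NASH-CH against control and 0.28 to 0.42 between the models. Without control rat 6 and NASH-CH rat 5, *Idh2* minus *Idh3a* in NASH-CH against control was 0.719, no longer called.

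All genes called in NASH against control numbered 403, but 652 by edgeR, 1228 by DESeq2, 865 with library size only, 268 without a filter, 644 with the 2 groups alone, 1509 with quality weights and 1413 without those rats. In NASH-CH against control 2192 became 5495 without a filter and 1408 with the 2 groups alone. In NASH-CH against NASH 542 became 949 by DESeq2, 201 with library size and 270 with TMM without small RNA, 2649 without a filter and 349 with the 2 groups alone. With 1 rat left out these counts ran from 128 to 982, 1519 to 2409 and 346 to 591. The higher share of calls moved from 50.6% to 90.8% in NASH and from 49.4% to 85% in NASH-CH livers with library size only. The cause of these shifts was not tested.

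Rats of different groups shared numbers in the labels, and deviations of same-numbered rats correlated at -0.12 to 0.17 for NASH with control, 0.0272 to 0.124 for NASH-CH with control and -0.0744 to 0.0804 for NASH-CH with NASH. Each rat was set against the 6 rats of the other group, of which 1 bore its number. Of 12 rats, 6, 5 and 3 correlated best with their own number, a hint of pairing from the data. The labels do not say what a number shares, and not every pair was above 0.1, so the rats were not treated as paired. In NASH-CH against control *Dlat* passed the test under 6 of 13 alternatives. With a replicate block, 2 of the 8 transcripts were called in NASH-CH against control, *Dlat* being added (adjusted p = 0.0413 by limma-voom), and 1 in NASH-CH against NASH, *Idh2* (adjusted p = 0.0339). A sign-flip test paired by number gave an adjusted p of 0.0938 to the 3 called ratios, *Idh2* minus *Idh3a* in NASH-CH against control (0.63) and *Dlat* minus *Pdha1* in NASH against control (-0.63) and NASH-CH against NASH (0.36), where the smallest unadjusted p is 0.0312.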
